A study of Homo sapiens with 2 samples.

Results

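The genes described here were 9 targets of the tumor suppressor p53 or inhibitors of cyclin-dependent kinases (CDKs), namely MDM2, CDKN1A, CDKN1B, CDKN1C, CDKN2C, CDKN2D, TP53INP1, GADD45A and BTG2. They were taken by name, in a choice made with earlier results of these data known. The RUNX2 and MTA1 peaks inside them or within 20 kb were collected. This gave 36 of the 61700 RUNX2 peaks and 27 of the 42683 MTA1 peaks on chromosomes 1 to 22, X and Y, at 9 of 20037 protein-coding genes. The peaks came from cultured MDA-MB-231 cells, an established triple-negative breast cancer line, with no drug or gene perturbation named, profiled by CUT&Tag with an antibody against the transcription factor RUNX2 or against MTA1, a subunit of the NuRD deacetylase complex. In CUT&Tag an antibody guides a transposase to chromatin, and the fragments it tags are sequenced. The assay is named as in the study's methods, but the labels give a ligation-based preparation, so it is uncertain. There was 1 library per antibody and no control library was analysed here, so no value has a replicate error, no p-value was computed, and differences between RUNX2 and MTA1 are differences between these libraries. The read depth of the libraries is unknown.

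p53 is switched on by DNA damage and turns on genes that stop the cell cycle, repair DNA or start apoptosis. CDK inhibitors fall into the CIP/KIP family, which binds cyclin and CDK complexes broadly, and the INK4 family, which binds CDK4 and CDK6. CDKN1A (p21) belongs to both groups of genes, as it is a CIP/KIP inhibitor and the classical p53 target in cell cycle arrest, whereas MDM2 is the ubiquitin ligase that p53 induces and that degrades p53 in return. MDA-MB-231 cells are known to lack the CDKN2A and CDKN2B genes. Expression was not measured in these libraries.

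The study asked which genes are occupied by RUNX2 together with MTA1 and the ubiquitin ligase scaffold CUL4B. No CUL4B peaks were used here, and the first question was whether the 9 genes carried peaks of both RUNX2 and MTA1. All 9 had a RUNX2 peak in or within 20 kb of the gene, against 84.4% of all protein-coding genes, and 8 had an MTA1 peak, against 79.7%. Peaks of both lists were present at 8 genes (76.9% of all genes), and at the same 8 genes at least 1 RUNX2 peak shared 1 bp or more with an MTA1 peak (71.0% of all genes). The exception was BTG2, with a RUNX2 peak and no MTA1 peak, a state shared by 7.56% of all genes. All 9 genes span at most 50 kb, and of the 13768 protein-coding genes of that size 72.9% had peaks of both lists and 67.5% had an overlapping pair. Most genes thus met the same rules, and nothing is read from these counts about the 9 genes as a group.

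The p53 and CDK inhibitor genes varied in the number of their peaks. The median was 4 RUNX2 peaks per gene, against 3 over all protein-coding genes, and 3 MTA1 peaks, against 2. CDKN1B carried the most, with 7 RUNX2 and 5 MTA1 peaks, and 86.3% of protein-coding genes had fewer RUNX2 peaks and 80.1% fewer MTA1 peaks. CDKN1A had 6 RUNX2 and 2 MTA1 peaks, CDKN1C had 5 and 3, and MDM2 had 4 and 3. CDKN2D had 4 of each, TP53INP1 had 4 and 2, GADD45A had 3 and 4, CDKN2C had 2 and 4, and BTG2 had 1 and 0. Of the RUNX2 peaks, 18 were nearest to another protein-coding gene than the one for which they were counted, as were 13 MTA1 peaks, so a peak in these windows need not belong to the named gene. All peaks counted for CDKN1B were among these, with GPR19 or APOLD1 nearest, so by nearest gene CDKN1B had 0 peaks, and 8 of the 9 genes had a RUNX2 peak and 7 an MTA1 peak.

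**Figure D1:**
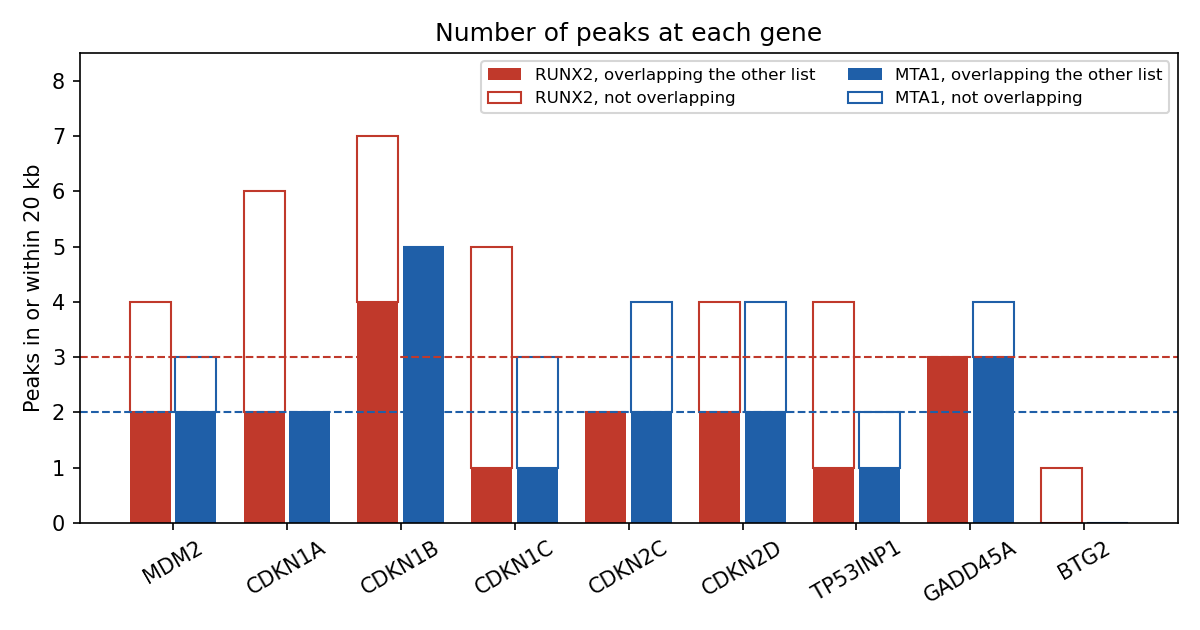
Number of peaks (vertical axis) inside each of the 9 genes or within 20 kb of it (horizontal axis), for RUNX2 in red and MTA1 in blue; filled parts of the bars overlap a peak of the other list, open parts do not, and the dashed lines give the medians over all protein-coding genes, 3 for RUNX2 and 2 for MTA1. CDKN1B has the most peaks and BTG2 a single RUNX2 peak.

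The sequence over which the peaks lie is shown for 5 members with a RefSeq promoter window, which runs from 250 bases before to 50 bases after an annotated start (GRCh38.p14). These windows were chosen because they show a window overlapped by peaks of both lists, of 1 list and of none. Capitals mark the bases inside peaks of both lists or, at the inner start of MDM2, of RUNX2 alone and, at the middle start of CDKN2C, of MTA1 alone. The windows of CDKN1A and CDKN2D lay wholly inside peaks of both lists and that of BTG2 held none. CDKN1C, TP53INP1 and GADD45A have no window in the table.
MDM2, outer start, chr12:68807922-68808221, plus strand: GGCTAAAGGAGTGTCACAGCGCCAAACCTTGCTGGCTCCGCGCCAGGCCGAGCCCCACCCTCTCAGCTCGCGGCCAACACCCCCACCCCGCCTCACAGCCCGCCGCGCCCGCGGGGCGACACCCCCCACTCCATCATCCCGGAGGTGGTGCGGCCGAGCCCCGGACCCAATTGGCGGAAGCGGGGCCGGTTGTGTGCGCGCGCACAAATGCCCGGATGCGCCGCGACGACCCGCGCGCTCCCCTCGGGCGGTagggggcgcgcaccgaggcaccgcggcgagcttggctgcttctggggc
MDM2, inner start, chr12:68808767-68809066, plus strand: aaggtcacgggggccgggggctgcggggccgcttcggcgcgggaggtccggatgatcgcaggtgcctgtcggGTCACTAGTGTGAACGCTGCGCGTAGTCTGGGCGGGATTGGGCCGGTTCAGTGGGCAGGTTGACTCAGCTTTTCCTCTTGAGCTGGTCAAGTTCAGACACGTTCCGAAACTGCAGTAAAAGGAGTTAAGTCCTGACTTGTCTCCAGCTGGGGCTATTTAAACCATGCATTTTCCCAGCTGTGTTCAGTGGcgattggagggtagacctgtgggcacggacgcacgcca
CDKN1A, chr6:36678464-36678763, plus strand: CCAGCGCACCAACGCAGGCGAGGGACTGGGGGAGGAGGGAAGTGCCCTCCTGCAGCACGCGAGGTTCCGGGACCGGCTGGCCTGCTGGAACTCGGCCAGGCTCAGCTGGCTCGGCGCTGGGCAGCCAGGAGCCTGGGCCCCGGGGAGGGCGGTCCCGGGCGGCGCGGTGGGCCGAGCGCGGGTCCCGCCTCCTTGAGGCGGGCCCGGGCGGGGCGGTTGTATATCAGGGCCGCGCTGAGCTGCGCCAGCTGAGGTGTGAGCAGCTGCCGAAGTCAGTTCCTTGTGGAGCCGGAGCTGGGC
CDKN2D, chr19:10568930-10569229, minus strand: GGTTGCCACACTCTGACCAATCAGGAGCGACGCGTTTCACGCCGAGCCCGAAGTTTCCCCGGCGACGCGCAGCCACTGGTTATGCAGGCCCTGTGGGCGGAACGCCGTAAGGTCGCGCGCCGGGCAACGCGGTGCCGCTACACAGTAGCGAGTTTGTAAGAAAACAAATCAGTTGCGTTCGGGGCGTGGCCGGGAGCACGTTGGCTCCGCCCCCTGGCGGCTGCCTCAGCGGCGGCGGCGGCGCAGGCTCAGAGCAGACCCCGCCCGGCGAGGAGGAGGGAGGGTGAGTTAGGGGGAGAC
CDKN2C, middle start, chr1:50968456-50968755, plus strand: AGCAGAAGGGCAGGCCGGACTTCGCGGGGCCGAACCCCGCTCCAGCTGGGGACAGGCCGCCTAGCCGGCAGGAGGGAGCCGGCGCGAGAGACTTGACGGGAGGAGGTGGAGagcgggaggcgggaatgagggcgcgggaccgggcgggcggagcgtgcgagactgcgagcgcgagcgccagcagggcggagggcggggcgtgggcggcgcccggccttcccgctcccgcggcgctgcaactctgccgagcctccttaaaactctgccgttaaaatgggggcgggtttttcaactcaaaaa
BTG2, chr1:203305269-203305568, plus strand: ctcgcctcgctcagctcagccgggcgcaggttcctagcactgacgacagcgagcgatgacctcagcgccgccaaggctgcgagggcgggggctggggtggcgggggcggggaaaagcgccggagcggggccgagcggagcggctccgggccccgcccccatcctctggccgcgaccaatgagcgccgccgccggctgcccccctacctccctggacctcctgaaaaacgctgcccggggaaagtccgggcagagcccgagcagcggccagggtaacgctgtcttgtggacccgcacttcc

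The 11 windows of the 6 members in the table were searched on both strands for the RUNX motif, as TGTGGT or TGCGGT, and for the decamer bound by a p53 dimer. None of the 11 held an exact match to either. The p53 decamer was searched as its consensus with no mismatch allowed, and the known p53 response elements in the inner MDM2 window depart from that consensus, so the absence of a match does not mean that a window has no p53 site. Of all 34943 RefSeq windows of this length, 19.6% held a RUNX motif and 6.64% a p53 decamer, so most windows lack each of them. The windows of neighbouring MDM2 starts overlap each other, and so do their values. The member windows ranged in GC content from 46.3% to 74.7%, against a median of 58.7% over all windows. Of the 11 windows, 9 overlapped a RUNX2 peak and 8 an MTA1 peak, against 29.0% and 31.1% of RefSeq windows. As some of the 11 overlap each other, these are not counts of separate sites. In the first CDKN2C window the peaks covered only 13 bases (RUNX2) and 4 bases (MTA1). BTG2, with no peak, had a GC content of 73.3% and 34 CpG dinucleotides, within the range of the members whose starts were covered.

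Most members had peaks at their starts. A RUNX2 peak lay within 3 kb of a start, or of either gene end where no window was given, at 8 of 9 genes, against 57.2% of all protein-coding genes, and an MTA1 peak at 7, against 57.3%. At 7 genes peaks of the 2 lists overlapped there, against 46.9%. Of protein-coding genes spanning at most 50 kb, the shares were 54.9% for RUNX2, 55.4% for MTA1 and 45.6% for an overlap. A gene with several starts, or with both ends used, had more chances to be counted. MDM2 had 4 starts, CDKN2C had 3, and both ends were used for 3 members. Nothing is therefore read from these counts about the 9 genes as a group. CDKN1C had a RUNX2 but no MTA1 peak at either end (7.14% of genes), and BTG2 had neither (35.6% of genes). The same genes had no start peak when the window was narrowed to 1 kb.

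The scores of the lists are not on a stated scale, so each peak is given by its rank, the share of peaks of its own list that score lower. The strongest RUNX2 peak at each gene ranked above 82.1% of RUNX2 peaks in the median, against 81.5% over all protein-coding genes with a peak, and the strongest MTA1 peak, over the 8 genes with one, above 80.6%, against 82.7%. The members were spread around this centre. CDKN2D, GADD45A and MDM2 lay above the medians in both lists, and TP53INP1 and BTG2 lay lowest.

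**Figure D2:**
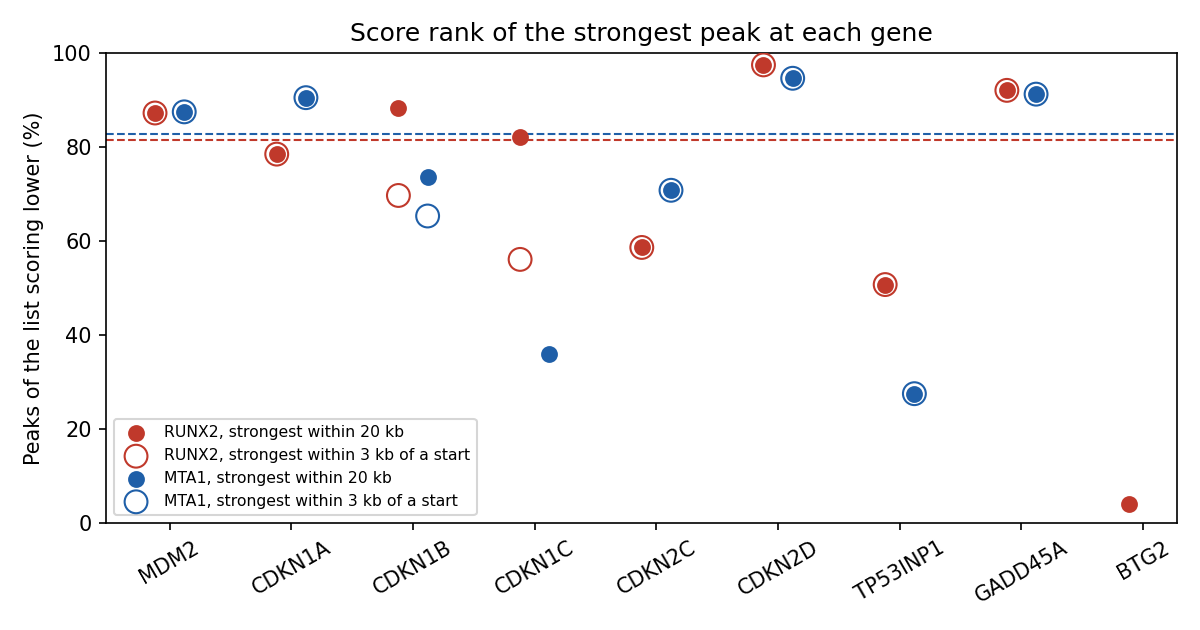
Rank of the strongest peak (vertical axis, percent of the peaks of the same list that score lower) at each of the 9 genes (horizontal axis); filled points are the strongest within 20 kb, open circles the strongest within 3 kb of a start, and dashed lines the medians over all protein-coding genes with a peak, 81.5% for RUNX2 (red) and 82.7% for MTA1 (blue). CDKN2D, GADD45A and MDM2 lie above both lines in both lists, and BTG2 lies at 4.04%.

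MDM2 had its strongest peaks at its outer start. The RUNX2 peak on chromosome 12, 68807911 to 68808173, scored 20.1 and ranked at 87.2%. The MTA1 peak at 68807902 to 68808220 scored 19.8 and ranked at 87.5%. They shared 263 bp, the whole of the RUNX2 peak. A weaker RUNX2 peak at 68808839 to 68809028 (score 6.11, rank 45.3%) covered 190 of the 300 bases of the inner window, the p53-responsive promoter, and no MTA1 peak was listed there. A further RUNX2 peak with its centre 560 bp before the outer start, at 68807561 to 68807664, ranked at 54.5%. The remaining pair, 12984 bp before the gene, ranked at 51.3% for RUNX2 and 21.8% for MTA1. A lone MTA1 peak inside the gene, at 68830386 to 68830501, ranked at 30.5%. MDM2 therefore had high ranks at its outer start alone.

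CDKN1A was covered at its main start and just downstream. The start lay in a RUNX2 peak on chromosome 6, 36678463 to 36678796 (score 13.7, rank 78.5%), that shared 301 bp with an MTA1 peak at 36678421 to 36678763 (score 13.0, rank 75.2%). The start of DINOL, a long noncoding RNA that p53 induces and that is read from the opposite strand, lay under the same peaks. The second pair lay inside the gene, with its RUNX2 centre 1672 bp after the start. There the order of the ranks was reversed, as the MTA1 peak at 36680223 to 36680667 scored 22.6 (rank 90.5%) and the RUNX2 peak within it, 36680323 to 36680449, scored 9.89 (rank 68.0%). A RUNX2 peak 9092 bp before the annotated gene, at 36667132 to 36667371 (rank 71.4%), overlapped no MTA1 peak. The other 3 RUNX2 peaks lay inside the neighbouring gene RAB44 and ranked between 26.7% and 47.3%.

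CDKN1B (p27), the CIP/KIP inhibitor of quiescent cells, had a pair of middling rank just before its start and most of its peaks in its neighbours. The RUNX2 peak on chromosome 12, 12716975 to 12717286 (score 10.3, rank 69.7%) shared 154 bp with the MTA1 peak at 12717133 to 12717354 (score 10.2, rank 65.3%). The peaks ended 82 bp and 14 bp before the gene and lay inside GPR19 in the annotation. A RUNX2 peak 1760 bp before the gene ranked at 12.9%. The strongest RUNX2 peak in the window, at 12735445 to 12735636 (score 21.2, rank 88.2%), lay inside APOLD1, 13076 bp beyond CDKN1B, and overlapped no MTA1 peak. A group of 2 RUNX2 and 3 MTA1 peaks, ranking between 38.7% and 67.2%, lay at the start of APOLD1. A pair inside GPR19, 12526 bp before CDKN1B, ranked at 72.3% for RUNX2 and 73.7% for MTA1.

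CDKN1C (p57), the imprinted CIP/KIP inhibitor, had RUNX2 peaks without MTA1 peaks at the gene itself. A RUNX2 peak on chromosome 11, 2885763 to 2885987 (score 7.37, rank 56.1%), lay over one end of the gene, and the nearest MTA1 peak was 6.88 kb away with a rank of 23.9%. The only overlapping pair lay 12842 bp from the gene in the antisense transcript SLC67A1-AS. Its RUNX2 peak ranked at 82.1% and its MTA1 peak at 30.3%, the widest gap of any pair at which RUNX2 ranked higher. All 3 MTA1 peaks near CDKN1C ranked at 35.9% or lower.

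The INK4 genes CDKN2C (p18) and CDKN2D (p19) lay far apart in rank. CDKN2C has 3 annotated starts, and each had a peak within 3 kb. The first lay beside a pair of modest rank on chromosome 1, 50960256 to 50960507 for RUNX2 (rank 58.6%) and 50960244 to 50960498 for MTA1 (rank 36.3%), which shared 243 bp and also covered the start of FAF1 on the opposite strand. At the middle start, whose window had 37 CpG dinucleotides and a GC content of 71.3%, only an MTA1 peak was listed, at 50968349 to 50968566 (rank 34.9%). At the last start the MTA1 peak at 50969922 to 50970230 (score 11.5, rank 70.8%) enclosed a RUNX2 peak of the narrowest width in its list, 99 bp, with a rank of 41.0%.

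CDKN2D had the highest-ranking peaks of the 9 genes. Its start lay in a RUNX2 peak on chromosome 19, 10568857 to 10569391 (score 23.9, rank 90.5%), and an MTA1 peak at 10568909 to 10569434 (score 28.5, rank 94.6%), which shared 483 bp, the most of any pair. The RUNX2 peak of highest rank among the 9 genes, 97.5%, lay 127 bp beyond the other end of the gene at 10565958 to 10566333 (score 42.1). It covered the start of KRI1, a gene of ribosome biogenesis, and was counted within 3 kb of the start of CDKN2D because CDKN2D spans 2520 bp. Its MTA1 partner at 10565953 to 10566182 ranked at 85.2%. The peaks in ATG4D and AP1M2 on either side overlapped no peak of the other list.

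GADD45A, a stress-induced gene that arrests the cell cycle at the G2 checkpoint, had 3 RUNX2 peaks, and each overlapped an MTA1 peak. At CDKN2C both RUNX2 peaks did, and at the other genes at least 1 did not. The strongest RUNX2 peak, on chromosome 1, 67685036 to 67685392 (score 26.3, rank 92.1%), lay over one end of the gene and shared 322 bp with an MTA1 peak at 67685024 to 67685357 (score 23.5, rank 91.2%). A second MTA1 peak with the same score, at 67682713 to 67683087, lay 2114 bp outside that end, and the RUNX2 peak inside it ranked at 42.2%, which was the widest gap of any pair at which MTA1 ranked higher. The third pair lay inside the gene with ranks of 67.5% for RUNX2 and 55.1% for MTA1. CDKN1B, with 4, was the other gene with at least 3 overlapping RUNX2 peaks, which 29.1% of all protein-coding genes had.

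TP53INP1, a stress-induced partner of p53 in apoptosis and autophagy, carried no peak above a rank of 50.7%. The pair at one end of the gene, on chromosome 8, consisted of a RUNX2 peak at 94949378 to 94949496 (score 6.77, rank 50.7%) and an MTA1 peak at 94949236 to 94949527 (score 5.72, rank 27.5%). The gene lies within NDUFAF6 in the annotation, so these peaks were inside both. The other 3 RUNX2 peaks were 99 bp wide, and 2 of them carried a score of 5.22 that 6168 peaks of the list share.

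BTG2, an antiproliferative gene induced by p53, stood at the low end. Its single RUNX2 peak, on chromosome 1, 203296535 to 203296633, was 99 bp wide, lay 8886 bp before the gene, and scored 3.39, higher than 4.04% of RUNX2 peaks. Among protein-coding genes with a RUNX2 peak, 0.496% had a lower strongest peak. The nearest MTA1 peak was 32.1 kb from the gene (rank 24.4%). A peak that is not listed may be absent or may lie below the threshold of the list, and these cannot be told apart at an unknown depth.

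**Figure D3:**
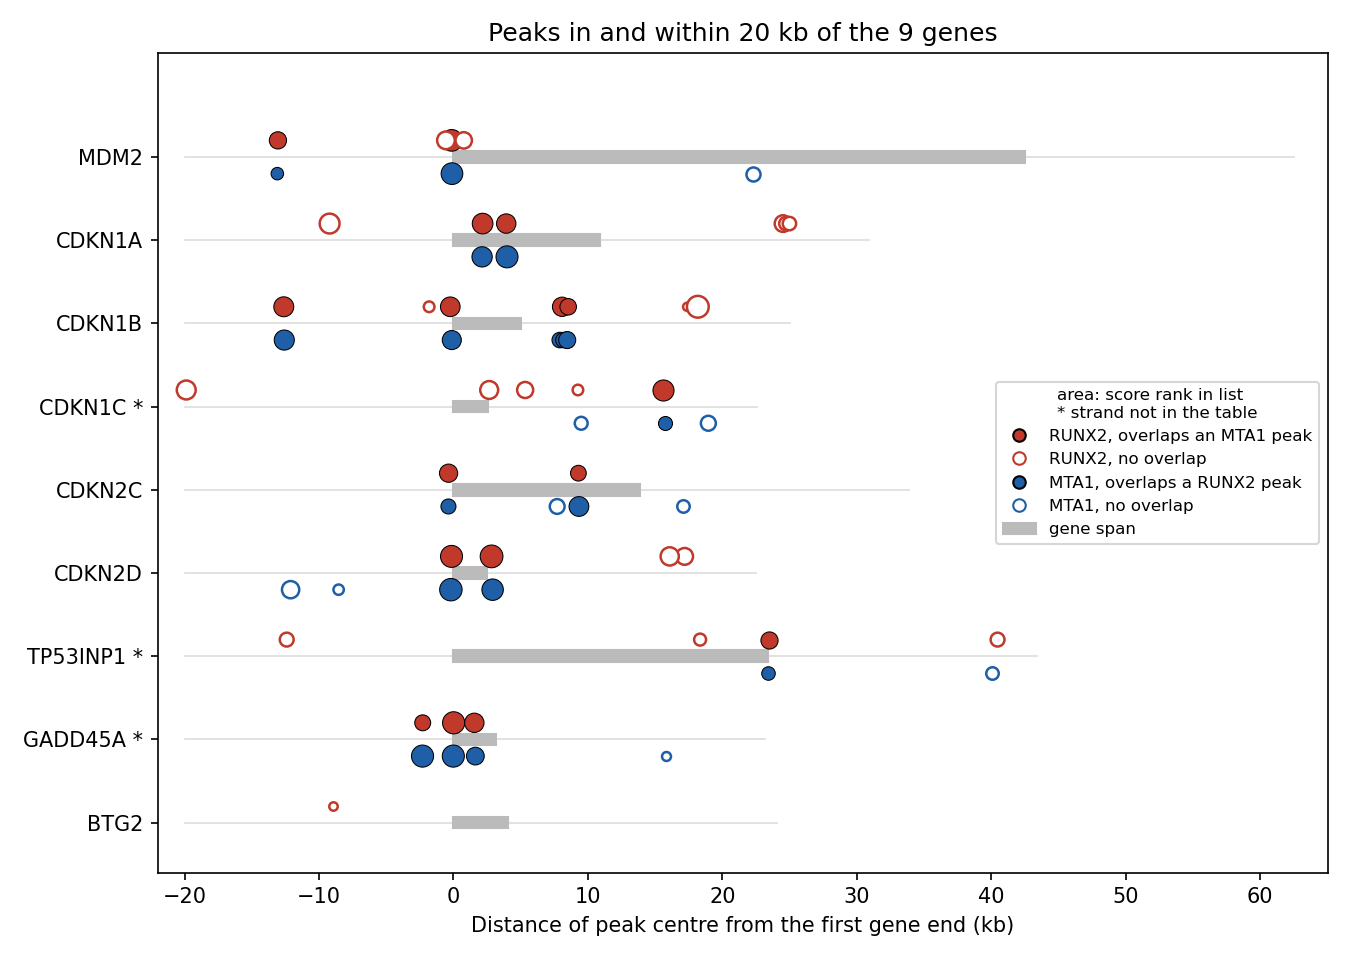
Position of each peak centre (horizontal axis, kb from the first end of the gene, in the direction of transcription where the strand is in the table and of rising coordinates for the genes with an asterisk) at the 9 genes (rows, grey bars for the gene span), with RUNX2 in red above and MTA1 in blue below each gene; filled points overlap a peak of the other list, open points do not, and larger points rank higher. GADD45A has 3 filled pairs close to the gene, and BTG2 has 1 small open point.

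The next question was how often the peaks at these genes coincided. Of the 36 RUNX2 peaks, 17 coincided with MTA1, which was 47.2% (95% exact interval 30.4% to 64.5%, counting error only), against 48.6% of all RUNX2 peaks within 20 kb of a protein-coding gene. For MTA1 the number was 18 of 27, which was 66.7% (46.0% to 83.5%), against 66.9%. The shares were higher at the starts. For RUNX2, 12 of 17 peaks within 3 kb of a start overlapped (70.6%, 44.0% to 89.7%), and 5 of 19 elsewhere (26.3%, 9.15% to 51.2%). For MTA1, 12 of 13 did so near a start (92.3%, 64.0% to 99.8%), and 6 of 14 elsewhere (42.9%, 17.7% to 71.1%). Over all protein-coding genes these shares were 70.4% and 74.1% at starts and 39.1% and 62.3% elsewhere within 20 kb. For these shares, elsewhere meant away from the start of any protein-coding gene. At the 9 genes it meant away from the start of the named gene only. The classes are thus not alike, as peaks at the start of APOLD1 counted as elsewhere for CDKN1B. The intervals at the 9 genes include each of these values. Peaks of the same gene are not independent, so the intervals do not test whether these genes differ from others.

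Overlapping peaks had the higher median rank in both lists. For RUNX2 the median rank was 68.0% (range 41.0% to 97.5%) in the 17 overlapping peaks and 43.1% (3.01% to 88.2%) in the other 19. For MTA1 it was 68.1% (21.8% to 94.6%) in 18 and 23.9% (5.87% to 51.5%) in 9. The ranges overlapped, and the same order held over the whole lists, with medians of 72.4% and 29.3% for RUNX2 and 65.2% and 24.4% for MTA1. Of the 11 RUNX2 peaks of the narrowest width 1 overlapped an MTA1 peak, that at the last start of CDKN2C. The overlapping share of all RUNX2 peaks of this width was not computed, so nothing is read from this count.

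The 18 overlapping pairs, formed by 17 RUNX2 and 18 MTA1 peaks, shared a median of 146 bp (range 86 to 483 bp), and their centres lay at most 172.5 bp apart. In 11 pairs the RUNX2 peak ranked higher in its list and in 7 the MTA1 peak did, and in 7 pairs the ranks were within 10 percentage points. These 7 were the start pairs of MDM2, CDKN1A, CDKN1B and CDKN2D, the pair over the end of GADD45A, and the CDKN1B pairs in GPR19 and at the second APOLD1 site. The pairs at CDKN1C and at the outer site of GADD45A lay farthest apart, in opposite directions.

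**Figure D4:**
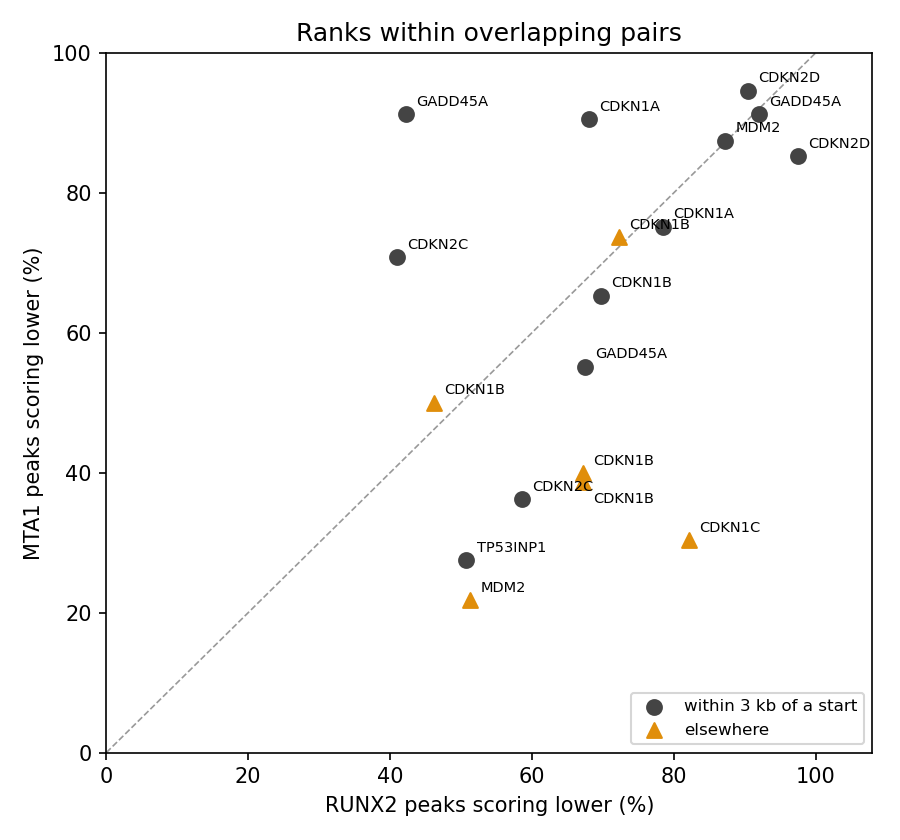
Rank of the MTA1 peak (vertical axis) against the rank of the RUNX2 peak (horizontal axis), both as percent of the peaks of the same list that score lower, for the 18 overlapping pairs, each labelled with its gene; circles lie within 3 kb of a start, triangles elsewhere, and the dashed line marks equal ranks. The pairs of MDM2, CDKN2D and GADD45A at the upper right lie near the line, and the CDKN1C pair lies at 82.1% and 30.3%.

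The other genes of the pathway were taken from fixed lists, chosen with earlier results of these data known, and are given as a description. All 26 further p53 targets, among them the apoptosis genes BAX, BBC3 and FAS and the repair genes XPC and DDB2, had an overlapping pair in or within 20 kb, against 71.0% of all protein-coding genes, and 22 had start peaks of both lists that overlapped, against 46.9%. Their strongest peaks within 20 kb ranked at 87.2% for RUNX2 and 93.8% for MTA1 in the median. The values were 82.1% and 80.6% at the 9 genes and 81.5% and 82.7% over all protein-coding genes with a peak. Such a peak need not lie at the start of the listed gene. At RRM2B the strongest RUNX2 peak did (99.7%), whereas at GDF15 it ranked at 99.2% within 20 kb and 13.7% at the start. The nearest gene of these peaks was not determined, so nothing is read from the ranks about p53 targets as a group. The exceptions at starts were TRIM22 with neither list, GDF15 with a RUNX2 peak alone at a rank of 13.7%, and ZMAT3 and BBC3 with an MTA1 peak alone. BAX is also a gene that the study examined for binding of both proteins, so its peaks are not independent of that choice.

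Among 13 paralogs and partners of the 9 genes, 10 had peaks of both lists and an overlapping pair, near the shares of 76.9% and 71.0% over all protein-coding genes. CDKN2A and CDKN2B, the INK4 genes that this line lacks, had no peak of either list, whereas the INK4 genes CDKN2C and CDKN2D had both. MDM4, the partner of MDM2, had start peaks at 95.9% for RUNX2 and 96.9% for MTA1, beside 87.2% and 87.5% at MDM2. The GADD45 genes differed, with 8 RUNX2 and 10 MTA1 peaks at GADD45B and 2 RUNX2 and 0 MTA1 peaks at GADD45G. Of the family of BTG2, BTG3 and TOB1 had overlapping start peaks, and BTG4, like BTG2, had no start peak of either list.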

How the data were processed

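CUT&Tag was made by the study in MDA-MB-231 cells with 1 library for RUNX2 and 1 for MTA1. The labels give a ligation-based preparation and an antibody supplier that differ from the study's methods, so both are uncertain. The authors deposited 1 peak list per library, with positions and a score of unstated scale. The submitters' processing notes name CASAVA 1.4, Bowtie 0.12.8, MACS, MACS2 and the build hg19, without roles. The positions were those of GRCh38: peaks overlapped 29.0% (RUNX2) and 31.1% (MTA1) of RefSeq GRCh38.p14 promoter windows as listed, and 1.67% and 1.24% after a move of 100 kb. Threshold, control and depth are not given in the sources used here. Positions are printed 1-based.

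Genes were 20037 RefSeq protein-coding genes, of which 15842 have a promoter window with a start and strand, and for the others either gene end was used. Exons were not annotated. Peaks were assigned within 20 kb, starts within 3 kb, and overlap was at least 1 bp. Scores were compared by rank within a list. Intervals are exact (Clopper-Pearson, 95%) and cover counting error only. The steps were tested on simulated data. The software was pandas 2.3.3, numpy 2.4.6, matplotlib 3.10.9 and scipy 1.17.1 under Python 3.11.15.

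The members and lists were chosen with earlier results of these data known. Named genes are the 9 members with their strongest peaks and overlapping pairs, genes in which or next to which those peaks lie, and list genes as their counts need. The values of 1 listed gene are not reported here. Alternatives were windows of 5 and 50 kb, a start window of 1 kb, the 10000 peaks of highest score, the upper part of each list from its median score, wider peaks, merging within 500 bp, stricter overlap, and nearest-gene assignment.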

Additional observations from a re-analysis of the deposited data

How the results depend on the processing

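No paired analysis was possible because each antibody has 1 library. Of 106 summary values recomputed, 63 stayed within the tolerance (1.5-fold for counts, the exact interval for shares and ranks). The others moved as follows, as windows, list sizes and ranks change by construction. Windows of 5 kb gave 20 RUNX2 peaks, 70.0% of them overlapping, and median strongest ranks of 74.1% and 87.5% (RUNX2 and MTA1). Windows of 50 kb gave 62 and 44 peaks, of which 28 and 29 overlapped, and ranks of 87.2% and 88.1%, and MTA1 then had a peak at all 9. Peaks at or above the median score numbered 20 and 13, of which 9 and 9 overlapped, with ranks within the reduced lists of 69.3% and 78.0% and a pair at 5 genes. With the 10000 highest-scoring peaks, 4 genes had a RUNX2 and 4 an MTA1 peak (5 and 6 peaks, 4 and 4 overlapping, 80.0% of RUNX2). Both lists and a pair were then present at 3 genes, MDM2, CDKN2D and GADD45A. Starts were covered at 3, 4 and 3 genes (RUNX2, MTA1, both). Median strongest ranks among the 10000 peaks, and not in the whole lists, were 39.1% and 61.0%. Ranks within the changed lists were 77.5% and 73.8% without the narrowest peaks and 81.0% and 79.5% after merging. Overlap over 50% or more of each peak of a pair left 10 and 10 peaks, or 27.8% and 37.0%. Peaks whose nearest protein-coding gene is the member numbered 18 and 14, with 10 and 10 overlapping, and CDKN1B then had 0. Depth is unknown, so a missing peak, such as MTA1 at BTG2, cannot be told apart from one below the threshold.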
